A study of Mus musculus with 6 samples.

Results

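The genes described here make, burn, take up and store fatty acids, and they were followed in a mouse hepatocellular carcinoma cell line and in 2 migratory sublines derived from it. The list names 41 genes by symbol. A gene was measured where a probe set on the array was annotated to that gene alone, and where several were, the one with the highest mean over all arrays was used. This gave values for 40 of the 41 genes, among 18193 genes on the array: 14 of 14 lipogenic genes (synthesis, desaturation, elongation and their regulators), 9 of 9 oxidation genes and 17 of 18 genes of uptake and storage. Acsl1 was not analysed here.

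RNA came from the parent line BL185 and from M1 and I1, which the labels call selected migratory subpopulations of BL185. All were hepatocellular carcinoma cells grown in the same serum-supplemented DMEM without further treatment named. Each line was hybridised to 2 Affymetrix mouse expression arrays, 6 in all. The labels give no genotype, no method of selection and no word on whether the 2 arrays per line are separate cultures, and p-values measure the spread between arrays, which may be technical. The samples hold no subclone that had not been selected for migration, so selection and the choice of a subpopulation cannot be told apart. Of the 8 hepatocyte markers measured, 5 read above the BL185 array medians of 7.87 and 7.91 on the log2 scale: the nuclear receptor Hnf4a (12.83 and 12.91), Fgb (9.51 and 9.46), Ttr (8.72 and 8.91), Apoa2 (8.01 and 8.13) and Cyp2e1 (7.97 and 7.98). Alb (7.60 and 7.53), Apoa1 (7.42 and 7.47) and Ahsg (7.59 and 7.57) read below them. Afp, the fetal liver marker of many liver tumours, read 7.39 and 7.14. The epithelial keratin Krt8 read 14.94 and 14.96.

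As background, fatty acid synthesis starts in the cytosol, where ATP citrate lyase (Acly) makes acetyl-CoA, acetyl-CoA carboxylase (Acaca) makes malonyl-CoA and fatty acid synthase (Fasn) builds palmitate. Desaturases (Scd, Fads) and elongases (Elovl) then reshape the chain, and the transcription factors Srebf1 and Mlxipl drive many of these genes in liver. Oxidation runs in mitochondria after the carnitine palmitoyltransferases Cpt1a and Cpt2 carry the chains in. Storage links fatty acids to glycerol as triglyceride, which is kept in droplets coated by perilipins and released by lipases, and the nuclear receptor Pparg drives many of the uptake and storage genes.

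The promoters of 3 genes are printed as examples of genes that read higher (Fads2) or lower (Pparg, Plin2) on every subline array than on the parent arrays. Other genes with an entry in the reference, among them Acsl4, Gpam, Pnpla2 and Agpat2, also met this and are not printed. Each run is the 250 bases before the annotated start, 5′ to 3′ on the gene's strand, from RefSeq on GRCm38.p6, with capitals marking the matches described next. The Fads2 window lies at chr19:10101504-10101753 on the minus strand, the first of 3 Pparg windows at chr6:115360894-115361143 on the plus strand and the Plin2 window at chr4:86670060-86670309 on the minus strand.
Fads2: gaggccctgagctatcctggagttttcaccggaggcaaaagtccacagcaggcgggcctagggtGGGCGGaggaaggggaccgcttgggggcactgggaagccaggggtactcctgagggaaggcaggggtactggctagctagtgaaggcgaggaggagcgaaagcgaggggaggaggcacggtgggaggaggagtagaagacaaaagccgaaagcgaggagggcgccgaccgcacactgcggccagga
Pparg: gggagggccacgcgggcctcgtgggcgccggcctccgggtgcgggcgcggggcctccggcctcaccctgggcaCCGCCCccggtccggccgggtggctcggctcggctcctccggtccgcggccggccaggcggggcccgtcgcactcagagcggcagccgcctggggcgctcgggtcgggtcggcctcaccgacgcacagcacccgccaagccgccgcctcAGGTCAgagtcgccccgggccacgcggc
Plin2: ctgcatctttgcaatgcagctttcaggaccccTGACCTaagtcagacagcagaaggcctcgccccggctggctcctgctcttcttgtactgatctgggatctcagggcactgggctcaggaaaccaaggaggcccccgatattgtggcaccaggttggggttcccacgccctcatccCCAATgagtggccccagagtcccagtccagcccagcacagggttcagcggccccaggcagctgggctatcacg
The capitals in Fads2 are a GC box, GGGCGG, from 186 to 181 bases before the start. In Pparg they are a GC box on the opposite strand, from 177 to 172 bases before the start, and AGGTCA, the core recognised by PPAR and other nuclear receptors, from 28 to 23 bases before it. In Plin2 they are AGGTCA on the opposite strand, from 218 to 213 bases before the start, and a CCAAT box, CCAAT, from 73 to 69 bases before it.

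RefSeq windows were found for 33 of the 41 genes, 42 windows in all. With both strands searched in the 250 bases, AGGTCA stood in 13 of the 42 windows (31.0%), against 14.0% of all 32851 windows of the same length. These 13 windows belonged to 12 genes, among them the oxidation genes Cpt1a, Acadm and Acadvl, the storage genes Gpam, Lpin1, Cd36 and Fabp1, and the lipogenic genes Acly, Elovl1 and Elovl6. GGGCGG stood in 54.8% of the windows against 32.7% of all, and CCAAT in 40.5% against 33.8%. The sterol response core TCACNCCAC stood in 2 windows, those of Mlxipl and Acsl1 (4.76% against 1.05%), and the E-box CACGTG in 7.14% against 6.02%. TATAAA stood in 7.14% against 12.4%. Each motif was counted on its own, and matches to different motifs may overlap. Several of the genes are neighbours in the RefSeq gene order: Fads1 and Fads2 on chromosome 19 and Hadha and Hadhb on chromosome 5 have no protein-coding gene between them, Scd1 and Scd2 have 1, and Fabp4 and Fabp5 as well as Gpam and Acsl5 have 2.

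The arrays of M1 differed from each other more than those of the other lines, which bears on every value below. Over all genes the replicate SD was 0.65 on the log2 scale in M1, 0.10 in BL185 and 0.16 in I1, and the correlation between replicates was 0.91, 0.997 and 0.994. On M1 replicate 1 the genes that were bright in BL185 read low and the dim ones read high: the median of all genes was 1.11 below BL185 at a BL185 level of 10.5 to 11.5, and 0.44 above it at 7.5 to 8.5. On M1 replicate 2 the same medians were −0.07 and 0.07. The I1 arrays shifted in the same direction as M1 replicate 1 but less, with medians of −0.37 and −0.24 at the higher level and 0.18 and 0.19 at the lower one. The median difference of the 40 genes from the BL185 mean was −0.55 on M1 replicate 1, 0.14 on M1 replicate 2, and 0.08 and 0.24 on the I1 arrays. The gap between the 3′ and 5′ control probe sets of Actb, a measure of RNA length, was 1.08 and 0.88 in the parent line, 1.43 and 1.24 in M1 and 1.47 and 1.43 in I1. The 3′ control probe set of 18S rRNA read 10.11 and 10.14 in BL185, higher on the M1 arrays at 12.50 and 10.68, and 11.27 and 11.51 for I1. Whether these controls, the signal range of M1 replicate 1 or the shift by level on the I1 arrays had a part in the differences was not tested. Values without M1 replicate 1 are therefore given beside the results, but leaving it out does not remove the shift on the I1 arrays.

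**Figure D1:**
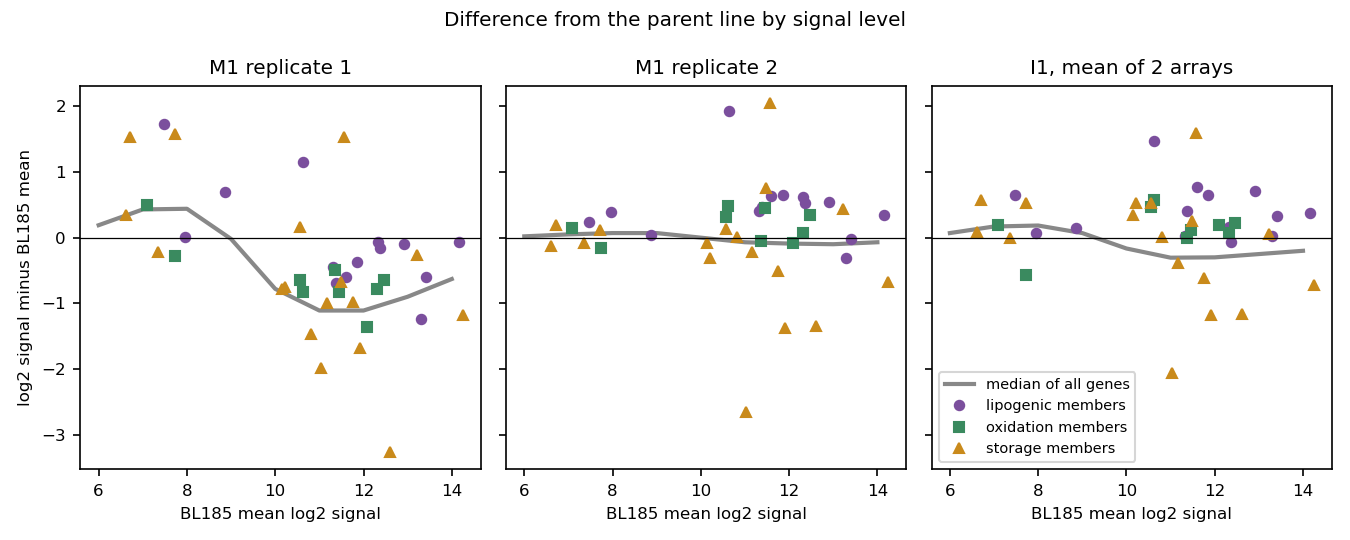
Each point is 1 of the 40 genes, placed by its mean BL185 signal (x axis, log2) and its difference from that mean (y axis, log2) on M1 replicate 1, on M1 replicate 2 and in I1 (mean of 2 arrays), with marker shape and colour giving its role. The grey line, the median of all genes by level, dips to −1.11 on M1 replicate 1 and stays between −0.10 and 0.07 on M1 replicate 2, and Lpl lies below it in all 3 panels.

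Against the parent line, M1 showed lower expression of lipoprotein lipase and, without passing the test, of several other uptake and storage genes, while the fatty acid binding protein Fabp5 and the desaturase Fads2 read higher. With limma on all 6 arrays and Benjamini-Hochberg adjustment over 18193 genes, a single gene of the 40 was called in M1 against BL185 at an adjusted p under 0.05, Lpl, which fell (2.5%, against 0.879% of all genes tested and 0.605% called lower). At an unadjusted p of 0.05, 2 genes were higher, Fads2 and Fabp5, and 5 lower, Lpl, Pparg, Plin2, Acsl4 and Gpam (17.5%, against 15.4% of all genes). Of the 40 genes, 35 had a mean log2 of at least 8. Over all genes at that level the share under this limit in M1 was 21.4%, above that of the 40 genes. Without M1 replicate 1, where the lone M1 array is taken to vary as much as BL185 and I1 do, 12 genes were called higher and 5 lower (42.5%, against 24.0% of all genes, 11.7% higher and 12.3% lower). After quantile normalization 5 genes were called (against 6.43% of all genes), and after cyclic loess 6 (against 10.0%).

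In I1 against BL185 the same adjustment called 0 of the 40 genes, against 0.511% of all genes. At an unadjusted p of 0.05, 4 were higher and 5 lower (22.5%). The share was 11.6% over all genes and 15.8% over all genes with a mean log2 of at least 8. The higher genes were Fads2, Fabp5, Acly and Agpat2, and the lower ones Lpl, Pparg, Plin2, Gpam and Ppargc1a. Without M1 replicate 1, and equally in a fit of I1 and BL185 alone, 16 genes were called higher and 7 lower (57.5%, against 46.6% of all genes, 22.5% higher and 24.1% lower). In the fit of I1 and BL185 alone, 56.9% of all genes with a mean log2 of at least 8 were called, close to the 57.5% of the 40 genes. After quantile normalization 6 genes were called (against 5.39% of all genes), and after cyclic loess 8 (against 8.7%). Of the 40 genes, 22 were higher and 7 lower in I1 without overlap with the BL185 arrays, with backgrounds of 42.6% and 33.5% of all genes. For M1 these counts were 8 and 13, with backgrounds of 26.2% and 25.7%.

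Taken by role, the medians in M1 moved with the scaling of the arrays and with M1 replicate 1. Lipogenic genes had a median log2 difference of 0.17 in M1 (10 of 14 positive) and 0.35 in I1 (13 of 14). The median over all genes was 0.07 in M1 and 0.06 in I1. Over all genes with a mean log2 of at least 8, where most of the listed genes lie, it was −0.18 and −0.04. The oxidation median in M1, given below, was the same as at this level. Over all genes with a mean log2 under 8 the median was 0.21 and 0.14. Storage genes had a median of −0.43 in M1 and 0.06 in I1, with 7 and 10 of 17 positive. Oxidation genes had a median of −0.18 in M1, with 1 of 9 positive, but of 0.15 without M1 replicate 1 (6 of 9), 0.18 after quantile normalization (7 of 9) and 0.21 after cyclic loess (7 of 9), and of 0.19 in I1. Without M1 replicate 1 the M1 medians of lipogenic and storage genes were 0.43 and −0.08. M1 and I1 were both set against the same BL185 arrays, so a shift of those arrays moves both.

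Without M1 replicate 1, 8 of 14 lipogenic genes were called in M1, all higher (Acly, Fasn, Elovl1, Elovl6, Fads1, Fads2, Srebf1 and Mlxipl), 2 of 9 oxidation genes, both higher (Cpt2 and Hadhb), and 7 of 17 storage genes, with Fabp5 and Acsl3 higher and Lpl, Acsl4, Gpam, Plin2 and Pparg lower. In I1 without that M1 array, 8 lipogenic genes were called, all higher (Acly, Acacb, Scd2, Elovl1, Elovl5, Elovl6, Fads2 and Srebf1), with Cpt1a and Cpt2 higher and Ppargc1a lower among the oxidation genes. Of the storage genes in I1, 6 were called higher (Fabp1, Fabp5, Agpat2, Lpin1, Dgat2 and Lipe) and 6 lower (Lpl, Acsl4, Gpam, Plin2, Pnpla2 and Pparg). These counts stand against 24.0% of all genes called in M1 and 46.6% in I1. Over all genes with a mean log2 of at least 8, where most of the listed genes lie, the shares were 33.5% and 56.9%. No test of one role against another was made.

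**Figure D2:**
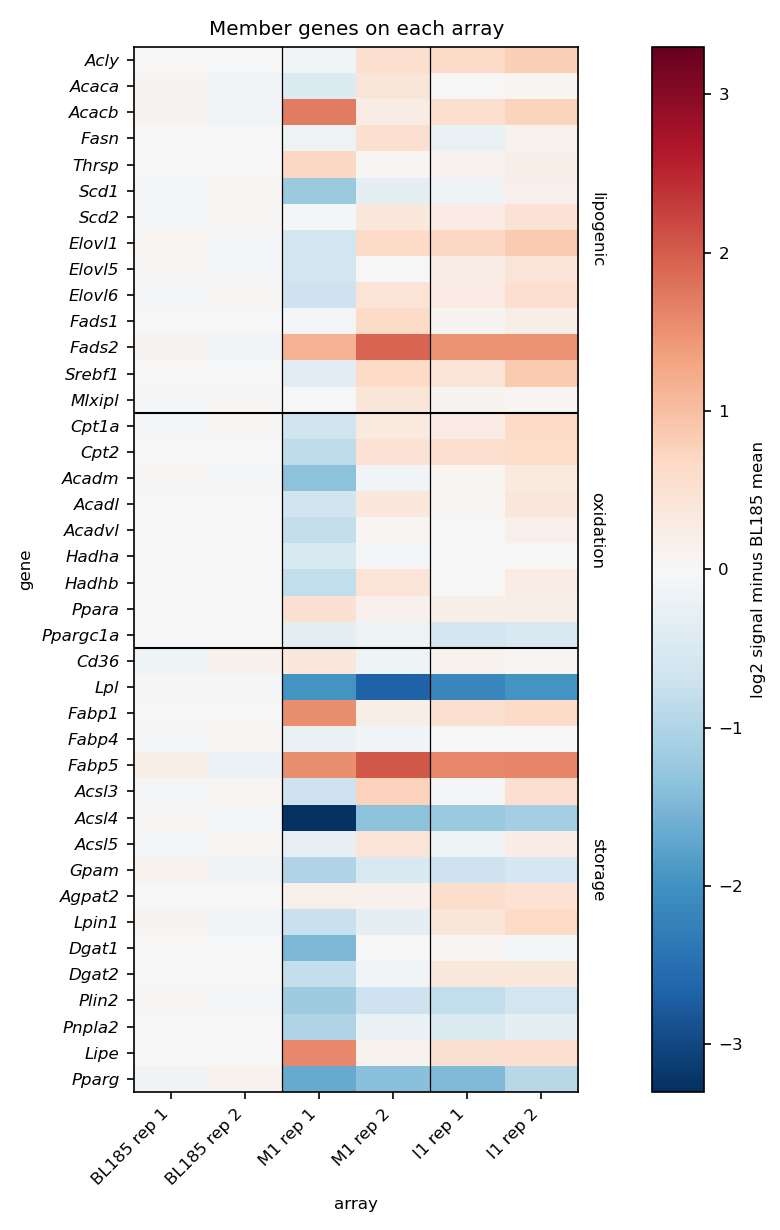
Rows are the 40 genes grouped by role and columns the 6 arrays, and the colour gives the log2 signal minus the BL185 mean of that gene (red higher, blue lower). Lpl, Acsl4, Pparg and Plin2 are blue and Fads2 and Fabp5 red on all 4 subline arrays, and of the 14 lipogenic genes 4 lie above the parent on M1 replicate 1 and 12 on M1 replicate 2.

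Lipoprotein lipase, which frees fatty acids from circulating triglyceride for uptake, read 11.07 and 10.99 in the parent line, 9.05 and 8.37 in M1, and 8.88 and 9.05 in I1. All subline arrays lay well below the parent arrays, and M1 and I1 overlapped. In M1, Lpl fell by 2.32 ± 0.27 (log2, SE, n = 2 arrays a line), which is 5.0-fold, with a limma adjusted p of 0.0389. The difference in I1 was −2.06 ± 0.27, with a limma adjusted p of 0.0612. A second Lpl probe set read 8.28 and 8.27 in the parent line, 7.20 and 6.85 in M1 and 7.17 and 7.24 in I1, the same order. The call in M1 depended on the fit: its adjusted p ranged from 8.67e-09 (without M1 replicate 1) to 0.581 over the 17 alternatives, and it was lost when any single BL185 or I1 array was left out. After quantile normalization Lpl was called lower in both lines, with limma adjusted p of 0.0372 in M1 and 0.0465 in I1, but after cyclic loess only in M1, with 0.0405 and 0.0513. In I1 the adjusted p ranged from 1.23e-08 to 0.818 over the 17 alternatives. In bulk RNA, fewer cells with a transcript and less of it in each cell cannot be told apart.

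Pparg, the nuclear receptor that drives many lipid storage genes, read 11.80 and 12.03 in the parent line, 10.24 and 10.54 in M1, and 10.47 and 10.99 in I1. The parent arrays lay above all 4 subline arrays. The differences were −1.53 ± 0.25 in M1 (limma adjusted p = 0.0780) and −1.19 ± 0.25 in I1 (limma adjusted p = 0.159), and −1.38 in M1 without replicate 1. After quantile normalization they were −1.10 and −0.96, and after cyclic loess −1.03 and −0.96, and Pparg was not called. The limma adjusted p was 0.0840 in M1 and 0.122 in I1 after quantile normalization, and 0.0863 and 0.111 after cyclic loess. Over the 17 alternatives it ran from 2.63e-06 to 0.739 in M1 and from 2.93e-05 to 0.999 in I1.

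Plin2, the droplet coat protein of many cell types, read 14.29 and 14.20 in the parent line, 13.06 and 13.57 in M1, and 13.43 and 13.61 in I1, again with every subline array below every parent array. The differences were −0.93 ± 0.23 in M1 (limma adjusted p = 0.171) and −0.72 ± 0.23 in I1 (limma adjusted p = 0.320), with limma adjusted p of 0.00277 and 0.000190 without M1 replicate 1. Over the 17 alternatives they ran from 4.96e-06 to 0.844 in M1 and from 0.000187 to 1.0 in I1, with 0.0369 and 0.0465 after quantile normalization. The Plin2 and first Pparg windows printed above both hold AGGTCA, and so does the second Pparg window. The third Pparg window does not, and no window of Acsl4 or Pnpla2, which also read lower in both sublines, does. Of the 12 genes whose windows hold it, Plin2, Pparg and Gpam had negative differences in I1 and the other 9 positive ones, from 0.08 to 0.77.

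Adipocytes and macrophages also use Lpl, Pparg and Plin2, and their markers were read on the same arrays. Of 7 adipocyte markers, 4 were measured, with a mean level of 7.67 to 7.68 on the BL185 arrays, 7.35 to 7.77 in M1 and 7.49 to 7.53 in I1. Adipoq (6.55 and 6.50) and Lep (7.09 and 7.26) read below the array medians in BL185, while Retn read 8.81 and 8.92, and Cidec, a droplet protein, read 8.22 and 8.05 in the parent line, 7.03 and 6.42 in M1 and 6.90 and 6.80 in I1. The 8 macrophage and leukocyte markers had a mean of 8.45 to 8.47 in BL185, 8.17 to 8.53 in M1 and 8.42 to 8.43 in I1, with 1 called lower in each line, Cd68, a lysosomal protein, at 10.74 and 10.56 in the parent line, 7.51 and 7.37 in M1 and 7.78 and 7.41 in I1. In BL185, Ptprc (6.25 and 6.25), Itgam (6.71 and 6.70) and Cd52 (6.96 and 7.17) read below the array medians, and Adgre1 (8.05 and 8.17), Csf1r (9.20 and 9.16), Lyz2 (8.53 and 8.51) and Cd14 (11.18 and 11.23) above them. Cidec and Cd68 were lower in both sublines, as Lpl, Pparg and Plin2 were, and their part in the result was not tested.

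Acsl4, which activates arachidonic and other long polyunsaturated fatty acids, read 12.65 and 12.57 in the parent line, 9.35 and 11.26 in M1, and 11.39 and 11.50 in I1. Both sublines lay below the parent, and M1 replicate 1 lay far below all other arrays. The differences were −2.30 ± 0.61 in M1 (limma adjusted p = 0.192) and −1.16 ± 0.61 in I1 (limma adjusted p = 0.572), or −1.35 in M1 without replicate 1. For Acsl4 the limma adjusted p was 0.0668 in M1 and 0.314 in I1 after quantile normalization, and 0.0283 and 0.150 after cyclic loess. Its 2 other probe sets differed more, by −3.04 and −2.95 in M1 and by −2.91 and −1.96 in I1, so the size in I1 depended on the probe set.

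**Figure D3:**
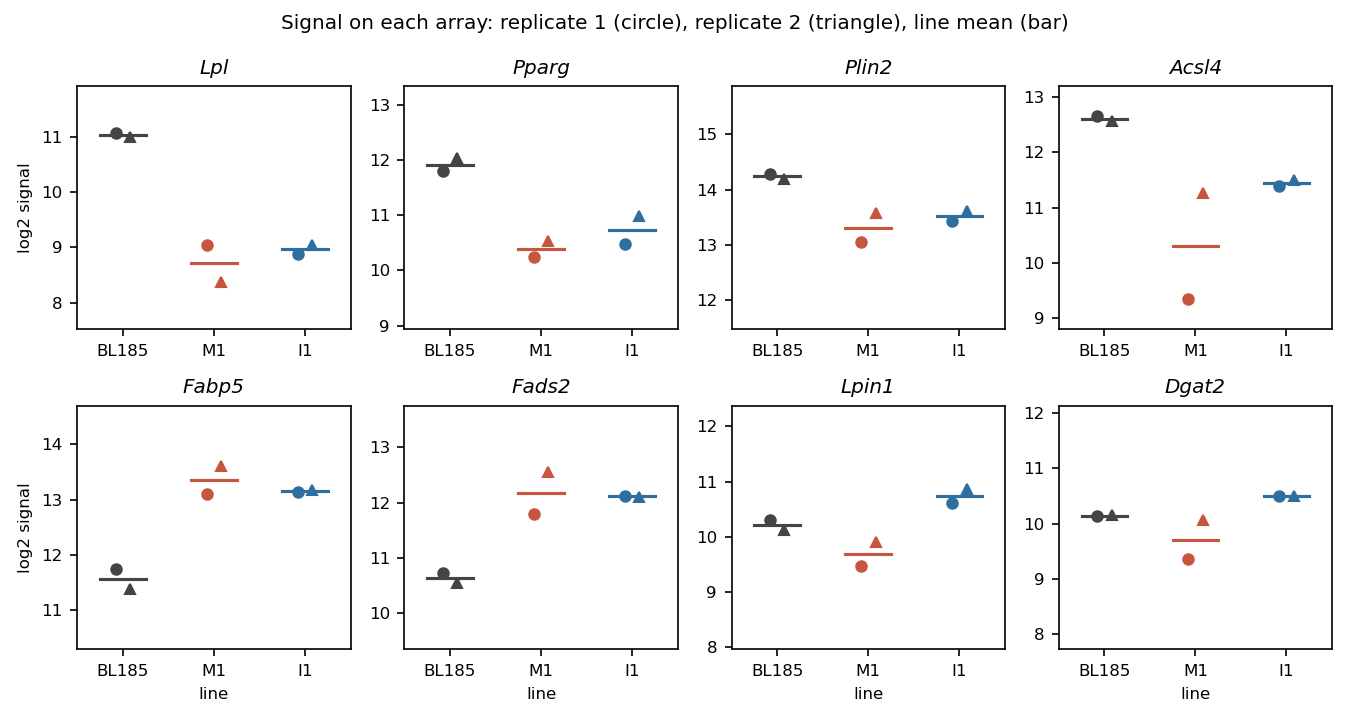
Each panel shows 1 gene, with the log2 signal on the y axis (every panel spans the same range of log2 units) and the 3 lines on the x axis. Circles are replicate 1, triangles replicate 2 and bars the line mean, and both M1 and I1 lie below BL185 for Lpl, Pparg, Plin2 and Acsl4, above it for Fabp5 and Fads2, and on opposite sides of it for Lpin1 and Dgat2.

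Among the fatty acid binding proteins, which carry fatty acids in the cytosol, Fabp5 had the largest difference. It read 11.75 and 11.38 in the parent line, 13.10 and 13.61 in M1, and 13.14 and 13.17 in I1. All 4 subline arrays lay above the parent arrays, with differences of 1.79 ± 0.25 in M1 (limma adjusted p = 0.0583) and 1.59 ± 0.25 in I1 (limma adjusted p = 0.0929). After quantile normalization the differences were 2.14 and 1.79, with limma adjusted p of 0.00684 and 0.0130, and over the 17 alternatives these ran from 3.74e-07 to 0.644 in M1 and from 4.25e-07 to 0.957 in I1. A second Fabp5 probe set differed by 1.94 and 1.51. Its neighbour Fabp4, the adipocyte form, read between 7.13 and 7.41 on the 6 arrays, with differences of −0.15 and −0.01. Fabp1, the liver form, read 6.72 and 6.71 in the parent line, 8.25 and 6.91 in M1 and 7.24 and 7.35 in I1, so the high M1 value came from replicate 1. The scavenger receptor Cd36, which takes up long-chain fatty acids, read between 6.47 and 6.96, with differences of 0.10 and 0.08. The deposited values carry no detection calls, and Cd36, Fabp1, Fabp4, Ppara and Ppargc1a were the 5 genes whose mean lay under a log2 value of 8.

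None of the enzymes that build triglyceride was called with all 6 arrays. Gpam, the mitochondrial acyltransferase of the first step, read 11.88 and 11.63 in the parent line, 10.77 and 11.24 in M1 and 11.07 and 11.21 in I1, with differences of −0.76 ± 0.23 (limma adjusted p = 0.240) and −0.62 ± 0.23 (limma adjusted p = 0.404). Agpat2, the acyltransferase of the next step, read 10.56 and 10.57 in the parent line, 10.72 and 10.70 in M1 and 11.15 and 11.05 in I1, with a difference of 0.53 ± 0.16 in I1 (limma adjusted p = 0.289). Gpam thus read lower and Agpat2 higher on all subline arrays, without passing the adjustment. After quantile normalization the Gpam differences were −0.33 in M1 and −0.40 in I1, and after cyclic loess −0.27 and −0.40. Lpin1, the phosphatidate phosphatase, read 10.31 and 10.12 in the parent line, 9.47 and 9.91 in M1, and 10.61 and 10.87 in I1. Dgat2, an enzyme of the last step, read 10.13 and 10.16, then 9.36 and 10.06, then 10.50 and 10.49. M1 lay below and I1 above the parent for both genes. The M1 differences were −0.53 for Lpin1 and −0.43 for Dgat2, but −0.31 and −0.08 without M1 replicate 1. After quantile normalization they were −0.17 and −0.11 in M1, and 0.74 and 0.56 in I1. After cyclic loess they were −0.09 and −0.00 in M1, and 0.74 and 0.55 in I1. Dgat1, the other enzyme of that step, read 10.83 and 10.79 in the parent line, 9.34 and 10.82 in M1 and 10.87 and 10.77 in I1, and only M1 replicate 1 stood apart.

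Of the lipases, Pnpla2, which starts triglyceride breakdown, read 11.17 and 11.16 in the parent line, 10.17 and 10.94 in M1, and 10.70 and 10.85 in I1. The subline arrays were all lower, with differences of −0.61 ± 0.29 (limma adjusted p = 0.393) and −0.39 ± 0.29 (limma adjusted p = 0.679). Without M1 replicate 1 the M1 difference was −0.22. After quantile normalization the differences were −0.16 in M1 and −0.13 in I1, and after cyclic loess −0.11 and −0.16. A second, dimmer Pnpla2 probe set went the other way, by 0.20 in M1 and 0.15 in I1. Lipe, the hormone-sensitive lipase, read 7.72 and 7.73 in the parent line, 9.31 and 7.84 in M1 and 8.22 and 8.28 in I1. Its M1 value was set by replicate 1. The acyl-CoA synthetases Acsl3 and Acsl5 differed by 0.04 ± 0.50 and 0.08 ± 0.29 in M1 and by 0.25 and 0.06 in I1, against −2.30 and −1.16 for Acsl4. No direct test of Acsl4 against the other synthetases was made.

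In the lipogenic group, Fads2, the desaturase that starts the making of long polyunsaturated fatty acids from dietary precursors, had the largest difference in both sublines. It read 10.72 and 10.54 in the parent line, 11.79 and 12.56 in M1, and 12.12 and 12.10 in I1, with no overlap with the parent. The differences were 1.55 ± 0.29 in M1 (limma adjusted p = 0.0987) and 1.48 ± 0.29 in I1 (limma adjusted p = 0.142), with limma adjusted p of 1.84e-07 and 2.55e-07 without M1 replicate 1. Quantile normalization gave 0.00577 and 0.00968, and over the 17 alternatives they ran up to 0.755 in M1 and 0.981 in I1. The sign of the difference from BL185 was the same under all 17 alternatives for Fads2, Fabp5, Lpl, Pparg, Plin2 and Acsl4 in both lines. Its 2 other probe sets differed by 1.13 and 0.35 in M1 and by 1.45 and 0.40 in I1, so the size depended on the probe set. Fads1, the next desaturase of that route and the neighbour of Fads2 on chromosome 19, read 12.33 and 12.31 in the parent line, 12.26 and 12.94 in M1 and 12.40 and 12.55 in I1. Its differences were 0.29 ± 0.27 and 0.16 ± 0.27.

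None of the core synthesis enzymes was called in either line with all 6 arrays. Fasn read 12.36 and 12.38 in the parent line, 12.21 and 12.90 in M1, and 12.13 and 12.48 in I1, which is a difference of 0.19 in M1 (95% interval −0.54 to 0.92) and −0.06 in I1 (−0.79 to 0.67). Acaca read 11.41 and 11.23, then 10.87 and 11.73, then 11.31 and 11.38, with differences of −0.02 (−0.82 to 0.78) and 0.02 (−0.78 to 0.82). These intervals leave room for changes of either sign. Acly read 12.92 and 12.90 in the parent line, 12.82 and 13.45 in M1, and 13.54 and 13.70 in I1, and its difference of 0.70 ± 0.26 in I1 had a limma adjusted p of 0.382. Of its other bright probe sets, 1 differed by 0.26 in I1 and 1 by −0.40, so the Acly probe sets disagreed in sign. Acacb, the mitochondrial carboxylase that restrains oxidation, read 7.56 and 7.39 in the parent line, 9.20 and 7.72 in M1 and 8.02 and 8.22 in I1, with M1 replicate 1 apart.

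The regulator Srebf1 read 11.86 and 11.85 in the parent line, 11.49 and 12.51 in M1, and 12.27 and 12.73 in I1. Only the I1 arrays lay wholly above the parent, with a difference of 0.64 ± 0.38 (limma adjusted p = 0.624, or 0.00205 without M1 replicate 1 and 0.00197 to 1.0 over the 17 alternatives). Mlxipl, the carbohydrate response factor, differed by 0.21 and 0.07, and Thrsp, a cofactor of lipogenesis, by 0.37 and 0.15. None of these 3 genes was called with all 6 arrays.

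The stearoyl-CoA desaturases, which place the first double bond, gave readings that depended on the probe set. Scd1 read 13.26 and 13.33 in the parent line, 12.06 and 12.99 in M1, and 13.16 and 13.47 in I1, with differences of −0.77 ± 0.34 and 0.02 ± 0.34, while its second probe set differed by 0.17 and 0.96. Scd2 read 14.13 and 14.19 in the parent line, 14.09 and 14.50 in M1 and 14.42 and 14.64 in I1, with differences of 0.14 and 0.37, while its 2 other probe sets differed by −0.86 and −1.07 in M1 and by −0.48 and −0.47 in I1. No direction is drawn for either gene. The elongase Elovl1 read 11.65 and 11.54 in the parent line, 10.99 and 12.23 in M1 and 12.27 and 12.46 in I1, with 0.77 ± 0.42 in I1 (limma adjusted p = 0.586). Of its 3 other probe sets, 2 differed by 0.75 and 0.79 in I1 and a bright one by −0.19, so these disagreed in sign. Elovl5, which acts on polyunsaturated chains, differed by −0.32 and 0.33, and Elovl6, which extends palmitate, by −0.12 and 0.41. The M1 arrays lay on either side of the parent arrays for Elovl1 and Elovl6.

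**Figure D4:**
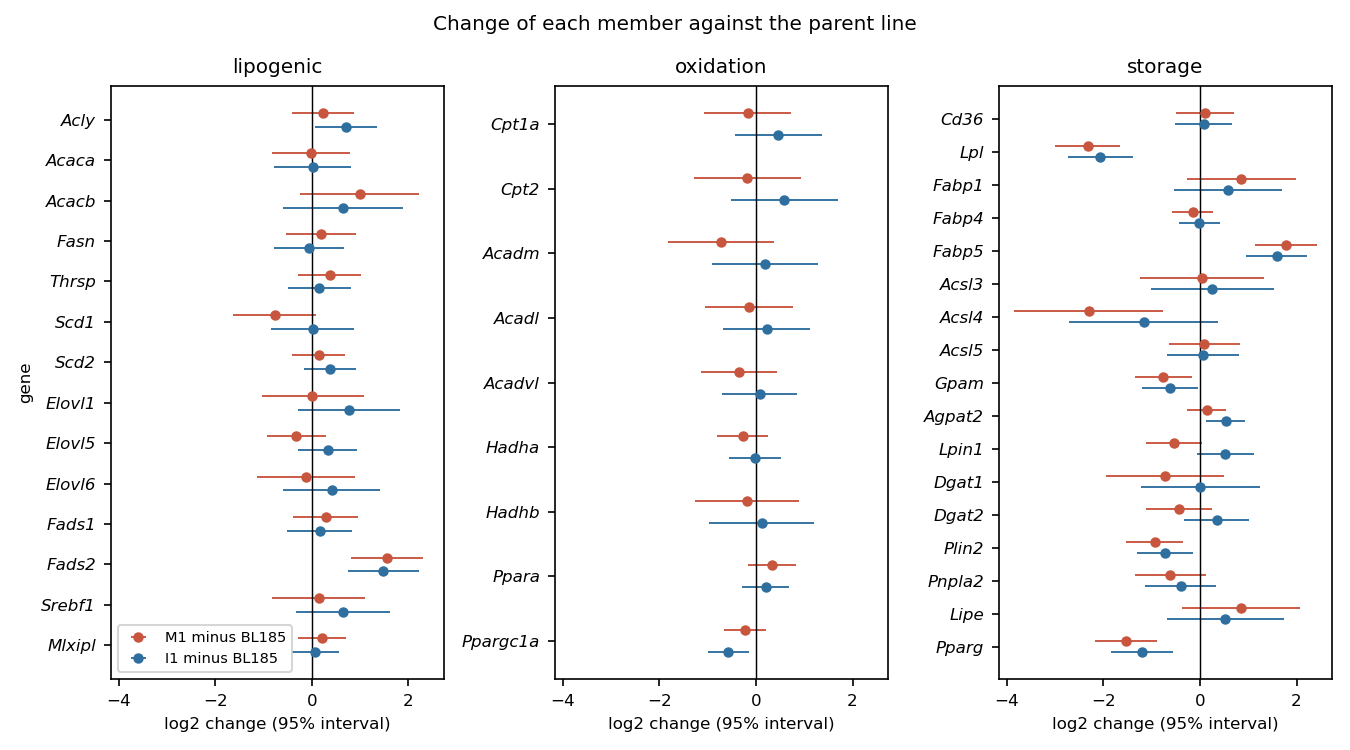
Each row is a gene, and points give the log2 difference from BL185 in M1 (red) and I1 (blue) with 95% intervals from the limma fit on 6 arrays, in 3 panels by role. Intervals of both lines lie off zero for Fads2, Lpl, Fabp5, Gpam, Plin2 and Pparg, and the oxidation panel has no gene for which both do.

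With all 6 arrays none of the 9 oxidation genes was called in either line. Cpt1a, the gatekeeper of entry into mitochondria, read 10.52 and 10.61 in the parent line, 9.92 and 10.88 in M1, and 10.84 and 11.21 in I1. Cpt2, which reforms acyl-CoA inside, read 10.60 and 10.65, then 9.79 and 11.11, then 11.17 and 11.24. For both genes the M1 arrays lay on either side of the parent arrays, and the I1 arrays lay above them, by 0.46 ± 0.36 and 0.58 ± 0.44. A dimmer Cpt1a probe set differed by 1.15 in I1 and 0.01 in M1.

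The acyl-CoA dehydrogenases take the first step of each cycle of oxidation. Acadm, for medium chains, read 12.12 and 12.06 in the parent line, 10.73 and 12.01 in M1, and 12.16 and 12.40 in I1, and the low M1 mean came from replicate 1. Acadvl, for very long chains, read 12.31 and 12.32, then 11.54 and 12.39, then 12.31 and 12.47, with differences of −0.35 (95% interval −1.13 to 0.43) and 0.08 (−0.71 to 0.86). Acadl, for long chains, differed by −0.15 and 0.22. The trifunctional protein subunits Hadha and Hadhb, whose genes are neighbours, differed by −0.27 and −0.18 in M1 and by −0.01 and 0.12 in I1. Another bright Hadhb probe set differed by 0.03 in M1 and 0.58 in I1, so the size for Hadhb depended on the probe set.

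The regulators of oxidation read low on the arrays. Ppara, the receptor that drives oxidation genes in liver, read 7.09 and 7.09 in the parent line, 7.59 and 7.23 in M1, and 7.28 and 7.29 in I1. Ppargc1a, its coactivator, read 7.72 and 7.75 in the parent line, 7.45 and 7.57 in M1, and 7.11 and 7.22 in I1, with a difference of −0.57 ± 0.17 in I1 (limma adjusted p = 0.273). Ppargc1a was the oxidation gene with an unadjusted p under 0.05 in I1, at 0.0177.

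M1 and I1 were also compared with each other directly, which asks whether the 2 sublines differ in lipid genes. With limma on all 6 arrays, 0 of the 40 genes passed the adjustment, and 0.0% of all 18193 genes did. At an unadjusted p of 0.05, 3 genes were higher in I1 and 0 lower (7.5%, against 2.25% of all genes): Lpin1 (1.05 ± 0.23), Dgat2 (0.78 ± 0.27) and Elovl5 (0.64 ± 0.24), with limma adjusted p of 0.962, 1.0 and 1.0. Among the 40 genes the arrays of the 2 sublines did not overlap for 12 higher in I1 and 1 lower, with backgrounds of 8.13% and 7.96% of all genes. The second Lpin1 probe set differed by 1.62 in the same direction, and the second Dgat2 probe set by 0.26. Without M1 replicate 1, 4 genes were called higher in I1 and 3 lower (17.5%, against 20.6% of all genes, 7.2% higher and 13.4% lower), with Lpin1 at 0.84 (limma adjusted p = 0.00252) and Dgat2 at 0.43 (0.0392). Over the 17 alternatives these ran from 1.56e-05 to 1.0 for Lpin1 and from 1.36e-05 to 1.0 for Dgat2. For Lpl, Pparg, Fabp5 and Fads2 the differences between the sublines were 0.26 ± 0.27, 0.34 ± 0.25, −0.20 ± 0.25 and −0.07 ± 0.29.

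Of 97 further genes of the same pathways, 89 were measured, and 2 were called in M1, both lower (2.25%, against 0.879% of all genes), and 1 in I1, lower (1.12%, against 0.511%). Acot2, a mitochondrial thioesterase that splits acyl-CoA, read 12.48 and 12.34 in the parent line, 9.99 and 10.16 in M1, and 10.18 and 10.54 in I1. In M1 it fell by 2.33 ± 0.21 (limma adjusted p = 0.0235) and in I1 it fell by 2.05 ± 0.21 (limma adjusted p = 0.0370), and its arrays did not overlap with the parent's. The range over the 17 alternatives was 2.13e-08 to 0.475 in M1 and 4.45e-08 to 0.682 in I1.

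Vldlr, a receptor that takes up triglyceride-rich lipoproteins and aids Lpl, read 12.55 and 12.56 in the parent line, 10.35 and 10.88 in M1, and 11.42 and 11.17 in I1. In M1 it fell by 1.94 ± 0.24 (limma adjusted p = 0.0466, from 2.04e-08 to 0.606 over the alternatives), and its difference in I1 was −1.26 ± 0.24 (limma adjusted p = 0.132). Acss2, which makes acetyl-CoA from acetate, read 9.39 and 9.26 in the parent line, 8.37 and 9.32 in M1, and 10.52 and 10.74 in I1, which is a difference of 1.31 ± 0.34 in I1 (limma adjusted p = 0.227). The citrate carrier Slc25a1 differed by −0.98 ± 0.28 in M1 and −0.25 in I1, and the desaturase-like Fads3, which lies in the Fads cluster, by −0.59 and −0.65. The peroxisomal enzymes Decr2 and Ehhadh were lower by similar amounts in both lines without passing the test, with −0.81 and −0.73 in M1 and −0.82 and −0.77 in I1. Elovl4 differed by 0.42 and 0.15. By role, the further lipogenic genes had medians of −0.19 in M1 and −0.07 in I1, the oxidation genes −0.29 and −0.01 and the storage genes −0.09 and 0.00, with 0 called among the first 22 and the next 27 genes.

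Calls in the other marker lists stand against 0.879% of all genes called in M1 and 0.511% in I1. The 8 stellate cell and fibroblast markers had means of 7.64 to 7.69 in BL185, 7.78 to 8.16 in M1 and 7.89 to 8.01 in I1, and the 6 endothelial markers 7.30 to 7.33, 7.41 to 7.84 and 7.50 to 7.51. Of 8 measured hepatocyte markers 1 was called in M1, the fibrinogen chain Fgb, which was lower. It read 9.51 and 9.46 in the parent line, 7.47 and 7.93 in M1 and 7.44 and 7.66 in I1. Of 9 measured fetal liver and epithelial markers 1 was called in M1, Sox9, which was lower. It read 11.42 and 11.48 in the parent line, 9.13 and 9.65 in M1 and 10.09 and 10.12 in I1. In I1 neither gene was called, with differences of −1.93 for Fgb and −1.35 for Sox9.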

How the data were processed

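Total RNA of 3 lines, 2 arrays each, was labelled with a 3′ IVT kit per the labels' protocols. The deposited values are log2 signals of 45101 probe sets, made by the authors with RMA and affy per the submitters' processing notes, with versions and settings not given in the sources used here. Of these probe sets 34945 named 1 gene, 932 several and 9160 none, and 64 were controls. Gene names are from the platform annotation, 34741 of them matched to RefSeq. The highest-mean probe set stood for a gene. Line means over 6 arrays were fitted with limma 3.58.1, run in R 4.3.3 (lmFit, eBayes, 3 residual and 2.27 prior degrees of freedom), with Benjamini-Hochberg adjustment over 18193 genes. The fit was tested on simulated data. Array number limits precision. Genes named are those called, the 3 smallest p-values per role and comparison, and 16 fixed genes. Other listed genes are given as single values, and Acsl4, Gpam, Fads1, Fabp1, Fabp4 and Lipe, given per array or by range, were chosen after their values were seen. The genes and lists were chosen with earlier results of these data known. Alternatives covered scaling, filter, probe set, eBayes settings, arrays fitted, a replicate block and each array left out.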

Additional observations from a re-analysis of the deposited data

Results flagged for a closer look

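For 3 genes the M1 arrays lay below both BL185 arrays and the I1 arrays above them. The M1 differences from BL185 were −0.72 for Acadm, −0.53 for Lpin1 and −0.43 for Dgat2, but −0.08, −0.31 and −0.08 without M1 replicate 1. The difference of I1 minus M1 was 0.91 (log2) for Acadm, 1.05 for Lpin1 and 0.78 for Dgat2, and the limma adjusted p was 1.0, 0.962 and 1.0, so none of the differences between the sublines passed the adjustment. Without M1 replicate 1 they were 0.27, 0.84 and 0.43, with limma adjusted p of 0.220, 0.00252 and 0.0392.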

How the results depend on the processing

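With 2 arrays a line, the number of genes called turned on the M1 arrays. In M1 against BL185 the count of 1 became 2 with array weights, median centring, a mean log2 of at least 8 or the mean of probe sets, 5 after quantile normalization, 6 after cyclic loess and 0 with the 2 lines alone, and it ranged from 0 to 29 when each array was left out (17 without M1 replicate 1; 29, or 72.5%, without M1 replicate 2, where 70.8% of all genes were called). In I1 against BL185 the count of 0 became 23 (57.5%) with array weights (47.0% of all genes) or the 2 lines alone (46.6%), 6 after quantile normalization and 8 after cyclic loess, and ranged from 0 to 23 with an array left out. In I1 against M1 it ranged from 0 to 29 with an array left out, with 7 without M1 replicate 1 (17.5%, against 20.6% of all genes) and 29 without M1 replicate 2 (72.5%, against 57.0%). Over all genes, quantile normalization turned 50 higher and 110 lower calls in M1 into 616 and 554, and 35 and 58 in I1 into 579 and 401. The share of all genes called in M1 went from 0.879% to 1.71% with array weights and 1.32% with median centring. It was 1.71% with a mean log2 of at least 8 and 1.86% with the mean of probe sets.

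The median log2 differences also moved. For lipogenic genes in M1 the median was 0.49 after quantile normalization, 0.45 after cyclic loess and -0.12 to 0.43 with an array left out, and in I1 it was 0.20 with the mean of probe sets, 0.23 with the most variable probe set and 0.25 to 0.45. For oxidation genes in M1 it was 0.18 after quantile normalization, 0.21 after cyclic loess and -0.65 to 0.15 with an array left out, and in I1 it was 0.34, 0.33 and 0.08 after quantile normalization, cyclic loess and the mean of probe sets, and 0.05 to 0.24. For storage genes in M1 it was -0.09 after cyclic loess and -0.75 to -0.08, and in I1 0.15 and 0.14 after the 2 normalizations and -0.02 to 0.09. Between the sublines the leave-one-out ranges were 0.01 to 0.46 for lipogenic and 0.03 to 0.86 for oxidation genes. Some genes turned sign and were called on either side, without M1 replicate 2 and without M1 replicate 1: in M1 Elovl1 (-0.60 and 0.63), Elovl6 (-0.69 and 0.45), Cpt2 (-0.84 and 0.48), Hadhb (-0.82 and 0.45) and Acsl3 (-0.67 and 0.76), and between the sublines Lipe (-1.06 and 0.41). Of 2427 comparisons of single genes 2033 kept their side, 234 newly passed, 28 no longer did and 126 changed sign without passing. The cause was not tested.

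Whether replicate numbers pair the arrays across lines cannot be decided with so few arrays a line. Deviations of replicate 1 correlated at -0.131 between BL185 and M1, 0.161 between BL185 and I1 and 0.369 between M1 and I1. With the replicate number as a block, 0 of the 40 genes were called in M1, 0 in I1 and 0 between the sublines. The shares of all genes called were 0.209%, 0.0055% and 0.0%. The M1 medians were 0.17, -0.18 and -0.43 for lipogenic, oxidation and storage genes.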
